A study of Rattus norvegicus with 10 samples.

Results

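The 6 genes described here encode receptors and adapters through which macrophages and related blood-derived cells sense antibodies and lipids: *Trem2*, *Tyrobp*, *Fcer1g*, *Fcgr3a*, *Fcgr2b* and *Fcgrt*. They were measured by 7 of the 31042 tested probe sets of the array, which are all the probe sets annotated to one of these symbols alone, 2 for *Trem2* and 1 for each of the other 5 genes. The genes were selected on their strain differences on these same arrays, which were already known, so those differences are given below as a description, without p-values. All 7 probe sets had a mean log2 level of at least 4 over the 10 arrays. The level 4 serves here as a mark of low signal, and the lowest value of the data is 2.23.

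TREM2 is a surface receptor of macrophages that binds lipids and lipoproteins, and it has no signalling motif of its own. It signals through TYROBP, also called DAP12, a short membrane adapter that carries an immunoreceptor tyrosine-based activation motif (ITAM). FCER1G, the Fc receptor gamma chain, is the matching adapter of the activating Fc receptors, which bind the constant part of antibodies on immune complexes. FCGR3A is one of these receptors and in mice does not reach the cell surface without the gamma chain. FCGR2B, in contrast, is the inhibitory IgG receptor of myeloid and B cells and recruits phosphatases. FCGRT, the heavy chain of the neonatal Fc receptor FcRn, pairs with beta-2 microglobulin and returns IgG and albumin from endosomes to the outside of the cell.

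Whole mammary glands of 5 ACI rats (ACI/SegHsd) and 5 BN rats (Brown Norway, obtained from Harlan), all female, were profiled with 1 Affymetrix array per rat. Each rat had received 17β-estradiol (E2) from a subcutaneous implant for 12 weeks, starting at 9 weeks of age, and no untreated rat is among these arrays. The strain field and titles of the BN samples give Brown Norway, although their RNA isolation text speaks of ACI rats; the strain field was followed. The study compared the strains because ACI rats are susceptible and BN rats resistant to mammary cancer induced by E2. Values are deposited log2 levels from GCRMA, a method that corrects each probe for background and normalizes the arrays to each other. All differences below are ACI minus BN on that log2 scale, so values below 0 mean more signal in BN glands. In whole glands, fewer cells of a type and less RNA per cell cannot be told apart.

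Array medians lay between 3.35 and 3.53, and each array correlated with the others of its strain at 0.957 or above. BN rats 4 and 5 stood apart from BN rats 1 to 3 on the second principal component (-49.85 and -90.72, against 23.23 to 49.18). The IDs of these 2 rats, and of ACI rats 4 and 5, start with H (series H), those of the remaining 6 rats with S (series S), and what the letters stand for is not stated in the sources used here. The gland was represented by its main tissues in both strains: the mean level of 12 luminal epithelial markers was 9.24 to 9.58 across ACI rats and 8.51 to 9.04 across BN rats, and that of 8 adipocyte markers 8.19 to 9.47 across ACI rats and 8.77 to 9.96 across BN rats. These means include 2 luminal markers and 1 adipocyte marker that were under 4 on every array.

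Of the 7 probe sets, 5 were called in the fit across all probe sets (adjusted p under 0.05 from limma), 1 toward ACI and 4 toward BN. In that fit 12.7% of all probe sets were called (6.79% toward ACI, 5.87% toward BN), but nothing is read from the count of members since this contrast was known when they were chosen. All probe sets include many of low signal: 30.6% to 33.3% of the values of an array were at the lowest value. The probe set toward ACI was that of *Fcgr3a*. Those toward BN were both of *Trem2*, that of *Tyrobp* and that of *Fcgr2b*. *Fcer1g* and *Fcgrt* were not called. The same 5 probe sets were those in which the values of the 2 strains did not overlap, as was the case for 12.3% of all probe sets (6.8% with ACI above BN and 5.47% with BN above ACI). Their calls were absent in the rats with H IDs alone, where 2 rats per strain remain and 0 of the 7 were called by limma, beside 0.322% of all probe sets (at an unadjusted p under 0.05, 4 of the 7 and 4358 of all 31042).

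**Figure D1:**
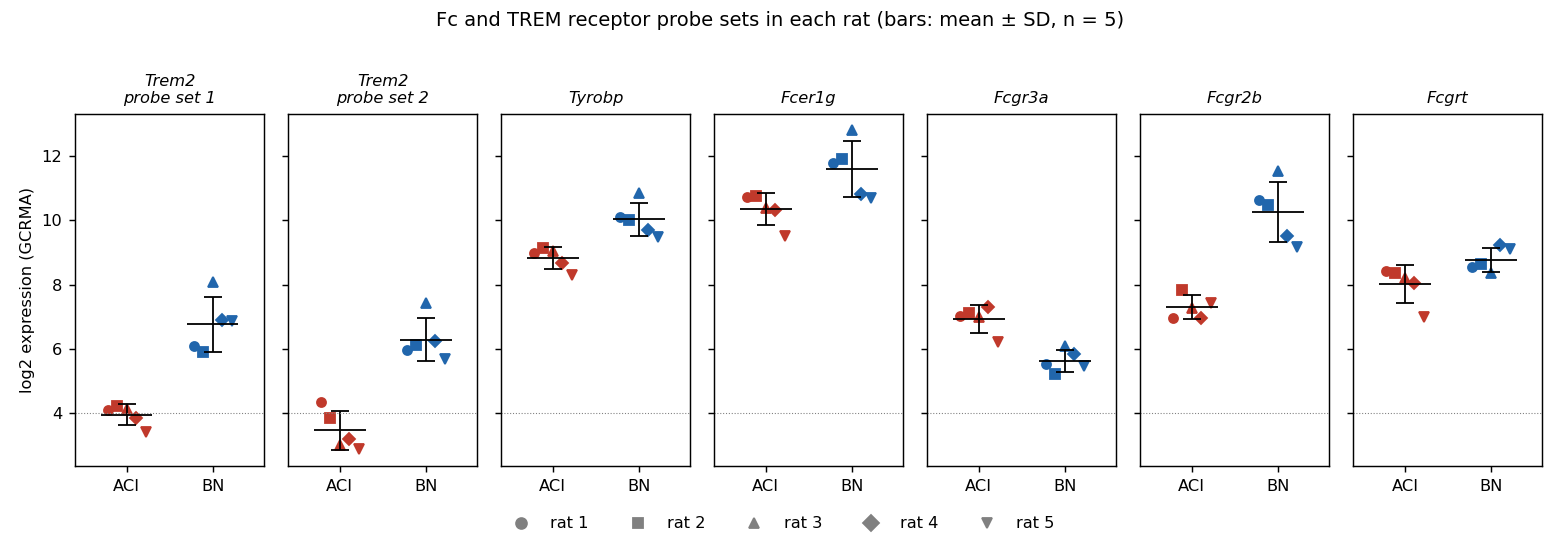
Log2 expression (y axis) of the 7 probe sets in each ACI rat (red) and BN rat (blue); symbols mark the rat number, bars the mean ± SD (n = 5) and the dotted line the level 4. The strains overlap in *Fcer1g* and *Fcgrt*, and ACI rats lie above BN rats in *Fcgr3a* alone.

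*Trem2* was low in ACI glands and moderate in BN glands. Its first probe set, the one with the higher mean, was at 4.11, 4.24, 4.13, 3.87 and 3.43 in ACI rats 1 to 5 and at 6.10, 5.91, 8.08, 6.91 and 6.88 in BN rats 1 to 5. The lowest BN rat lay 1.67 above the highest ACI rat, and BN rat 3 stood above the other BN rats. The means were 3.96 ± 0.324 in ACI rats and 6.78 ± 0.857 in BN rats (SD, n = 5), a difference of -2.82 (standard error 0.400) or a 7.06-fold lower level in ACI rats. The second probe set was at 4.35, 3.85, 3.03, 3.21 and 2.91 in ACI rats and at 5.96, 6.14, 7.44, 6.24 and 5.70 in BN rats. Its difference was -2.83 (standard error 0.396). With values under 4 set to 4, the differences were -2.68 for the first and -2.23 for the second. BN rat 3 was again the highest. In ACI rats both probe sets lay near or below 4, so the fold rests on low signals in that strain. Within the rats with S IDs alone, where the first probe set was not called, its difference was -2.54, and with H IDs alone it was -3.25.

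*Tyrobp* and *Fcer1g*, the ITAM adapters, were well expressed in both strains and differed less. *Tyrobp* was at 9.00, 9.15, 9.05, 8.69 and 8.31 in ACI rats 1 to 5 and at 10.12, 10.02, 10.84, 9.71 and 9.49 in BN rats 1 to 5. The strains were separated by 0.34, the gap between ACI rat 2 and BN rat 5. The means were 8.84 ± 0.342 in ACI rats and 10.04 ± 0.514 in BN rats (SD, n = 5), a difference of -1.20 (standard error 0.270), and its call was lost when ACI rat 4, BN rat 1 or BN rat 2 was left out, 3 of 10 such fits. *Fcer1g* was at 10.74, 10.75, 10.37, 10.33 and 9.53 in ACI rats and at 11.79, 11.92, 12.80, 10.81 and 10.70 in BN rats. BN rat 5 lay below ACI rats 1 and 2, and BN rat 3 was the highest of all. The means were 10.34 ± 0.496 in ACI rats and 11.60 ± 0.868 in BN rats (SD, n = 5). The difference of -1.26 (standard error 0.436) was as large as that of *Tyrobp*, with a wider spread in BN rats, and was -1.55 in rats with S IDs and -0.82 in rats with H IDs.

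*Fcgr3a* ran the other way. RefSeq lists *Fcgr4* and CD16-2 as its older names, names that link it to the mouse gene *Fcgr4*. It was at 7.03, 7.13, 7.00, 7.31 and 6.21 in ACI rats 1 to 5 and at 5.54, 5.22, 6.09, 5.86 and 5.48 in BN rats 1 to 5. ACI rat 5 was low for its strain and BN rat 3 high, and those 2 rats were 0.12 apart. The means were 6.94 ± 0.424 in ACI rats and 5.64 ± 0.340 in BN rats (SD, n = 5), a difference of 1.30 (standard error 0.237) or a 2.46-fold higher level in ACI rats. It lay between 1.19 and 1.48 in the 10 fits that left out 1 rat.

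The gene with the older symbols *Fcgr3* and *Fcgr3a*, now *Fcgr2a*, is represented by 2 probe sets that are annotated to *Fcgr2a* and *Fcgr2al1* together. They were left out of the 7 because they cannot be assigned to a single gene. Both were higher in BN rats. The first was at 9.41 ± 0.597 in ACI rats and 11.29 ± 0.463 in BN rats (SD, n = 5), which differ by -1.88 (adjusted p = 0.00729 by limma, standard error 0.330), and the second differed by -1.82 (standard error 0.313, adjusted p = 0.00659). In the GRCr8 assembly *Fcgr2b* and *Fcgr3a* are neighbours on chromosome 13, with these 2 paralogs and *Fcer1g* on the same chromosome. The array probes were not checked against the sequences of either strain.

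For *Trem2* and *Fcgr3a*, the macrophage receptors that lay on opposite sides of the strain comparison, the 250 bases before the annotated start of transcription are shown, taken from RefSeq on GRCr8, the assembly of a BN rat, and written 5′ to 3′ on the strand of the gene. Capitals mark GAGGAA or its reverse complement TTCCTC, the core bound by PU.1, an ETS factor that macrophages need to develop. The *Trem2* window is chr9:20151780-20152029 on the minus strand and the *Fcgr3a* window chr13:85782386-85782635 on the plus strand.
Trem2: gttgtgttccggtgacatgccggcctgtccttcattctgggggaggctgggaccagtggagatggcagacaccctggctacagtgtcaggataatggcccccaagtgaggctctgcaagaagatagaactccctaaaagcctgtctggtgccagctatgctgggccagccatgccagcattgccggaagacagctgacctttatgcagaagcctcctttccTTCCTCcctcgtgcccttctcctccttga
Fcgr3a: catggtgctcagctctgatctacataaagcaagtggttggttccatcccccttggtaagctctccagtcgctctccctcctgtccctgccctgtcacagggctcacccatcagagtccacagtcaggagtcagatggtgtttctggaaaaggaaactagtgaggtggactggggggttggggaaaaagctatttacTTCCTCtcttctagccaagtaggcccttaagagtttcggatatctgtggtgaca
Each window held 1 match, which opened 29 bases before the start in *Trem2* and 54 bases before it in *Fcgr3a*. On either strand, 23.3% of the 33469 promoter windows of this length held the motif, so a match is common and is given as a description of the sequence. The sequence of these windows in ACI rats was not analysed here.

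Set against *Fcer1g* within each array, *Fcgr3a* stood at -3.71, -3.62, -3.37, -3.02 and -3.32 in ACI rats 1 to 5 and at -6.25, -6.70, -6.71, -4.95 and -5.22 in BN rats 1 to 5. The offset between 2 probe sets has no meaning of its own, but its change from rat to rat shows unequal change of the 2 genes. The gap (*Fcgr3a* minus *Fcer1g*) averaged -3.41 ± 0.272 in ACI rats and -5.97 ± 0.831 in BN rats (SD, n = 5), so the receptor gene was 5.89-fold higher relative to its adapter gene in ACI rats, a log2 difference of 2.56. No value overlapped between the strains. The difference was 2.37 to 2.81 when 1 rat at a time was left out and 1.92 in the rats with H IDs alone. Within BN rats the gap was -6.55 on average in the S rats and -5.08 in the H rats. Against *Tyrobp* the gap of *Fcgr3a* was -1.90 ± 0.297 in ACI rats and -4.40 ± 0.439 in BN rats, a difference of 2.49. The 2 adapter genes kept nearly the same distance from each other, with *Tyrobp* minus *Fcer1g* at -1.50 ± 0.222 in ACI rats and -1.57 ± 0.394 in BN rats, and these ranges overlapped. *Trem2* differed more than its adapter: its first probe set minus *Tyrobp* was -4.88 ± 0.0391 in ACI rats, where all 5 rats lay between -4.92 and -4.82, and -3.26 ± 0.739 in BN rats. The second probe set spread more widely in ACI rats. Its gap to *Tyrobp* was -5.37 ± 0.49 there, between -6.02 and -4.65, and -3.74 ± 0.311 in BN rats.

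**Figure D2:**
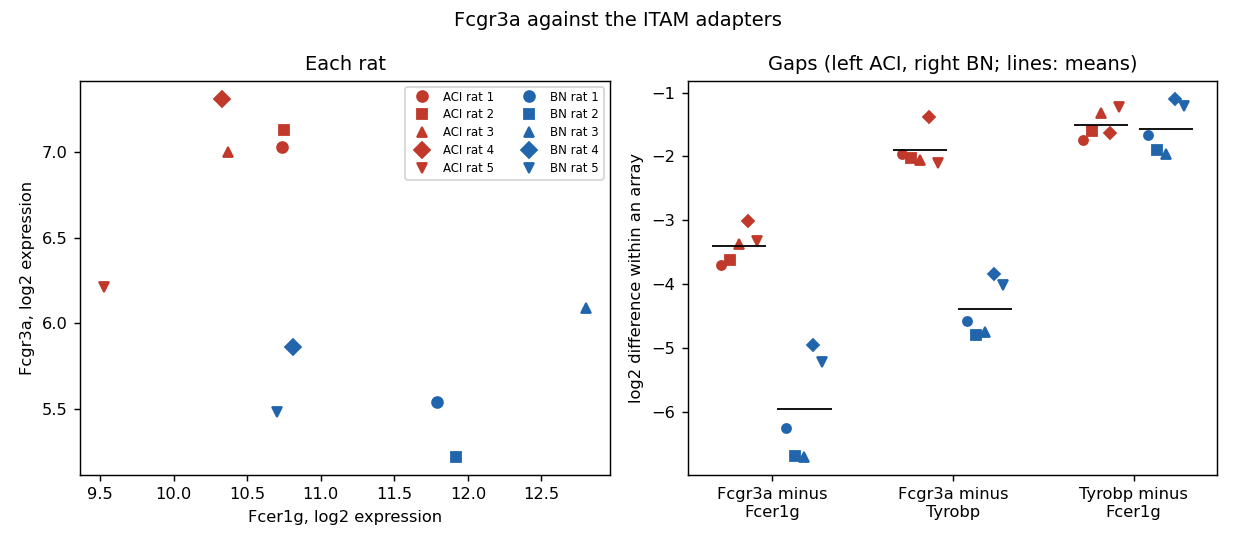
Left, log2 expression of *Fcgr3a* (y axis) against *Fcer1g* (x axis) in each ACI rat (red) and BN rat (blue). Right, log2 gaps within an array (y axis) for 3 pairs of genes (x axis), ACI left of BN, with lines at the means: the gap of *Fcgr3a* to *Fcer1g* is -3.41 in ACI rats and -5.97 in BN rats, whereas *Tyrobp* minus *Fcer1g* is -1.50 in ACI rats and -1.57 in BN rats.

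*Fcgr2b*, the inhibitory receptor gene, was moderate in ACI glands and high in BN glands. It was at 6.96, 7.85, 7.29, 6.96 and 7.42 in ACI rats 1 to 5 and at 10.63, 10.49, 11.53, 9.51 and 9.18 in BN rats 1 to 5. The strains were 1.33 apart at their nearest, and the 2 H rats were the lowest of the BN rats. The means were 7.30 ± 0.370 in ACI rats and 10.27 ± 0.940 in BN rats (SD, n = 5), a difference of -2.97 (standard error 0.441) or a 7.85-fold lower level in ACI rats. The difference was -3.52 among S rats and -2.15 among H rats. B cells also express this gene, and all 7 measured B cell markers were called toward BN (none toward ACI, also at an unadjusted p under 0.05). The mean level of these markers was 2.64 to 2.72 in ACI rats and 7.21 to 8.37 in BN rats 1, 2, 4 and 5, but 2.91 in BN rat 3, and 6 of the 7 were under 4 in every ACI rat. Only *Cd37*, at -2.90, kept its call in each of the 10 fits that left out 1 rat: 1 marker was called in 9 of them and 7 without BN rat 3. BN rat 3, with the lowest B cell markers of its strain, had the highest *Fcgr2b* of all rats. The same rat had the highest mean level of macrophage markers, 9.63. The part of either cell type in the level of *Fcgr2b* was not tested.

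*Fcgrt*, the FcRn heavy chain gene, differed least. It was at 8.44, 8.36, 8.20, 8.06 and 6.99 in ACI rats 1 to 5 and at 8.54, 8.64, 8.37, 9.23 and 9.11 in BN rats 1 to 5. ACI rat 5 lay more than 1 log2 unit below the other ACI rats, and BN rat 3 lay within the range of the ACI rats. The means were 8.01 ± 0.589 in ACI rats and 8.78 ± 0.373 in BN rats (SD, n = 5), a difference of -0.77 (standard error 0.304) that was -0.51 without ACI rat 5. It came almost entirely from the H rats, with -1.65 among them and -0.18 among S rats. The difference between these values was 1.46 (standard error 0.410) and did not pass the test of the interaction of strain and ID series (adjusted p = 0.126 from limma).

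Beyond the strain comparison, the rats of a strain differed from each other in several of these genes at once. BN rat 3 had the highest value of its strain in 6 of the 7 probe sets and the lowest in *Fcgrt*. ACI rat 5 had the lowest value of its strain in 6 of the 7, all but *Fcgr2b*. The mean level of 15 macrophage markers ran in the same sense, with 8.19 in ACI rat 5, the lowest of its strain, and 9.63 in BN rat 3, the highest.

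**Figure D3:**
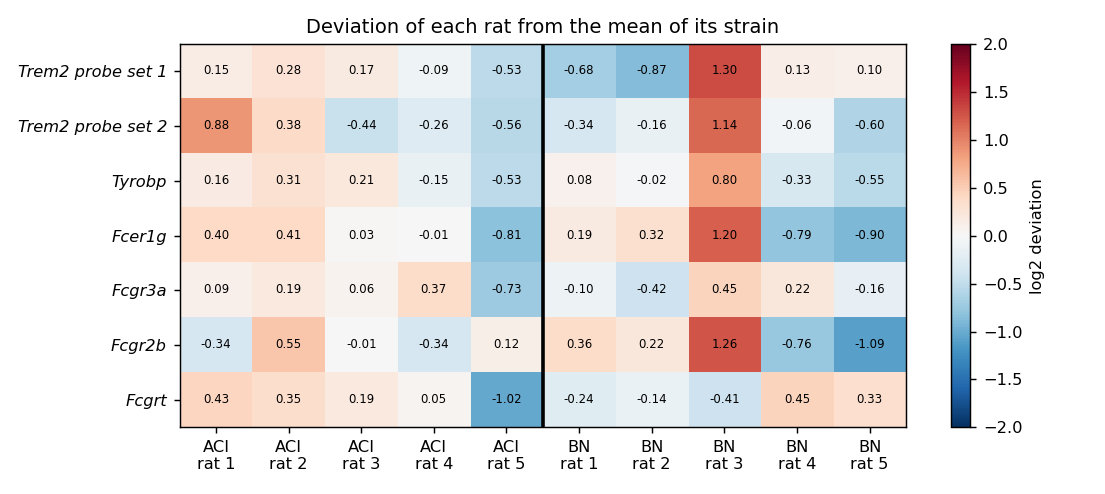
Deviation of each rat (x axis) from the mean of its strain, in log2 units (colour and printed value), for the 7 probe sets (y axis). BN rat 3 is above its strain mean in all but *Fcgrt*, by 0.45 to 1.30, and ACI rat 5 is below its strain mean in all but *Fcgr2b*, by 0.53 to 1.02.

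The animal ID series offered a comparison other than the strain difference on which the genes were selected. With strain as a block, S rats minus H rats gave 1.05 for *Fcer1g* (standard error 0.274), 0.86 for *Fcgr2b* (standard error 0.361) and 0.65 for *Tyrobp* (standard error 0.172). None of the 7 probe sets passed (lowest adjusted p = 0.524 from limma), nor did any of the 31042 probe sets; at an unadjusted p under 0.05 there were 3 of the 7 and 2514 of all. Among BN rats alone, where 8.51% of all probe sets were called, S minus H was 1.54 for *Fcgr2b* (adjusted p = 0.0679) and 1.42 for *Fcer1g* (adjusted p = 0.0686), and none of the 7 passed by limma (at an unadjusted p under 0.05, 3 of the 7 and 6647 of all). Among ACI rats 0.0838% of all probe sets were called and none of the 7 (at an unadjusted p under 0.05, 1 of the 7 and 1385 of all). The interaction of strain and series was called in 2.76% of all probe sets and in none of the 7 (at an unadjusted p under 0.05, 2 of the 7 and 5518 of all).

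Macrophage markers differed between the strains as well. Of 15 measured markers, none was called toward ACI and 7 toward BN by limma (2 and 10 at an unadjusted p under 0.05), with a median difference of -0.74, beside 8.29% of all 14217 genes called toward ACI, 9.12% toward BN and a median over all genes of 0.00. Among those called were *Itgam*, an integrin chain of myeloid cells, at -2.71 (adjusted p = 7.39e-05), near background in ACI rats, *Ms4a7* at -2.82 (adjusted p = 0.00144) and the lysozyme gene *Lyz2* at -2.24 (adjusted p = 3.18e-05). The 8 markers that were not called lay on both sides of 0. They were the complement genes *C1qa* at 0.11, *C1qb* at 1.20 (adjusted p = 0.0502) and *C1qc* at -0.06, the lipopolysaccharide receptor gene *Cd14* at 0.09, the chemokine receptor gene *Cx3cr1* at 0.74, and *Mpeg1*, *Mrc1* and *Aif1* at -0.74, -0.68 and -0.61. *Cx3cr1* was near background in BN rats. The mean level of the 15 markers was 8.19 to 8.61 in ACI rats and 9.01 to 9.63 in BN rats, a difference of -0.95. Taken relative to that mean in each array, the differences were -1.87 and -1.88 for the 2 probe sets of *Trem2*, -2.03 for *Fcgr2b*, -0.25 for *Tyrobp*, -0.31 for *Fcer1g*, 0.18 for *Fcgrt* and 2.24 for *Fcgr3a*. The part of cell numbers in these differences was not tested.

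Markers of other cells were read in the same way. Of 8 granulocyte markers, none was called toward ACI and 2 toward BN by limma (0 and 4 at an unadjusted p under 0.05), led by *S100a9* at -4.92, and their mean was 2.53 to 3.02 in ACI rats and 3.35 to 5.48 in BN rats. That mean was 5.02 to 5.48 in BN rats 1 to 3, but 3.51 and 3.35 in BN rats 4 and 5. Of these 8 markers, 3 were under 4 on every array and 7 were under 4 in every ACI rat. Of 9 mast cell markers, 5 were under 4 on every array, and *Fcer1a*, the ligand-binding chain of the IgE receptor, was called toward BN at -2.95 (adjusted p = 0.0131 from limma; near background in ACI rats). The 10 natural killer cell markers averaged 4.57 to 4.96 in ACI rats and 4.57 to 5.50 in BN rats, with only the granzyme gene *Gzma* called, toward ACI, at 1.64 (adjusted p = 0.00176). Their median difference was -0.31, with 7 of the 10 below 0, and 4 of the 10 were under 4 on every array. At an unadjusted p under 0.05 by limma, 1 was toward ACI and 3 toward BN. Of 10 endothelial markers, none was called toward ACI and 6 toward BN by limma (0 and 7 at an unadjusted p under 0.05), with *Vwf* at -2.46, *Stab2* at -2.45 and *Lyve1* at -2.38. *Stab2* was near background in ACI rats. Of the 12 luminal markers 4 were higher in ACI rats, including *Cldn3* at 1.92, *Elf5* at 1.06 and *Krt18* at 1.02, and of the 8 adipocyte markers 2, *Plin4* at -1.65 and *Adipoq* at -0.86, were higher in BN rats. The count of endothelial markers toward BN was 3 to 6 when 1 rat was left out, that of granulocyte markers 1 to 4 and that of adipocyte markers 0 to 4, with 0 in 8 of the 10 fits. Among B cell markers *Ms4a1* was at -6.81, *Cr2* at -6.44 and *Cd79b* at -4.58, all near background in ACI rats. The part of these cell types in the values of the 6 genes was not tested.

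Genes of the same pathways that are not among the 6 were counted in the same way. Of 88 measured genes in 5 lists, 9 passed toward ACI and 42 toward BN, with a median difference of -0.64, and 37 did not pass. Over all 14217 genes, 8.29% were called toward ACI, a share near that of the 9, and 9.12% toward BN. All genes include many of low signal, whereas 5 of the 88 were under 4 on every array. These lists and the marker lists above were chosen with earlier results of these data known. Their counts and adjusted p-values, here and below, are therefore a description. For the 88 genes the count toward BN was 25 among S rats and 3 among H rats alone, where that toward ACI was 1.

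Of 11 other genes of the Fc and TREM receptor families, 2 passed toward ACI and 6 toward BN, with a median of -1.61. The count toward BN was 2 in series S and 1 with the replicate number as a block. The mean level of the list was 5.69 to 5.97 in ACI rats, 6.42 in BN rat 3, whose B cell markers were also low, and 7.35 to 7.61 in the other BN rats. Toward ACI were *Fcrl2*, an Fc receptor-like gene, at 2.22 (adjusted p = 1.1e-05) and *Pigr*, which encodes the receptor that carries IgA and IgM across epithelium into milk, at 1.57 (adjusted p = 0.000342). Toward BN were *Fcer2*, the low-affinity IgE receptor gene CD23, at -4.05 (adjusted p = 0.037), *Fcmr*, the IgM receptor gene, at -3.82 (adjusted p = 0.00658), and *Fcrla*, a gene related to Fc receptors, at -3.55 (adjusted p = 0.0276), all 3 of them known as genes of B cells. *Fcer2* and *Fcrla* were near background in ACI rats, and a second probe set of *Fcer2* had -0.50 and was not called. *Fcgr1a*, the high-affinity IgG receptor gene, was at 8.17 ± 0.303 in ACI rats and 9.26 ± 0.840 in BN rats (SD, n = 5), a difference of -1.09 that did not pass (adjusted p = 0.119).

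Of 25 genes for ITAM and related adapters and the kinase cascade, 1 passed toward ACI and 13 toward BN, with a median of -0.71. *Syk*, the kinase that docks on the phosphorylated ITAM, was at 5.01 ± 0.134 in ACI rats and 6.95 ± 0.568 in BN rats (SD, n = 5), a difference of -1.95 (adjusted p = 0.00178). *Hcst*, which encodes DAP10, the adapter that often accompanies TYROBP, had -1.73 (adjusted p = 0.018). The largest differences toward BN were those of the GTPase gene *Rac2* at -3.31, the kinase gene *Btk* at -3.21 and the T cell and mast cell adapter gene *Lat* at -3.03 (adjusted p = 0.000763, 0.000409 and 0.0302), with *Btk* near background in ACI rats. The kinase gene *Src* was higher in ACI rats at 0.89 (adjusted p = 0.0264), but its other 3 probe sets were not called, and its own call was lost when any of 5 rats (ACI rats 1, 2 and 4, BN rats 2 and 4) was left out. *Cd247*, the zeta chain gene of T and natural killer cells, had -2.06 and did not pass (adjusted p = 0.0962).

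Of 17 genes of inhibitory signalling, 2 passed toward ACI and 10 toward BN, with a median of -1.11, and the count toward BN was 6 without ACI rat 3. The count toward ACI was 1 without any 1 of the 5 ACI rats, without BN rat 2 and without BN rat 4. Of the phosphatases that can act below inhibitory receptors, *Inpp5d* (SHIP1) at -1.69 (adjusted p = 0.00693) and *Ptpn6* (SHP-1) at -0.98 (adjusted p = 0.0334) were higher in BN rats, *Inppl1* (SHIP2) at 1.08 (adjusted p = 0.00522) was higher in ACI rats, and *Ptpn11* (SHP-2) at -0.30 did not pass (adjusted p = 0.313). The inhibitory receptor genes *Lilrb4* at -4.09, *Cd22* at -3.20 and *Clec12a* at -2.20 differed most, the first 2 of them near background in ACI rats. Toward ACI were *Pilra*, also an inhibitory receptor gene, at 1.35 and *Inppl1*, whose second probe set had 0.56 and was not called.

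Of 24 genes for TREM2 ligands, the proteases that shed it and the lipid-associated macrophage state, 1 passed toward ACI and 11 toward BN, with a median of -0.50. The 3 largest differences were those of *Spp1*, the osteopontin gene, at -9.39 (adjusted p = 1.58e-05), *Cst7*, a cystatin gene, at -3.23 (adjusted p = 5.63e-05) and *Itgax*, the integrin chain CD11c, at -2.43 (adjusted p = 0.000796). *Spp1* is also made by mammary epithelium. *Clu*, the clusterin gene, which encodes a lipoprotein that TREM2 can bind, was higher in ACI rats at 0.86 (adjusted p = 0.000723), with a second probe set at 0.26 that was not called. Of 11 genes of FcRn function, 3 passed toward ACI and 2 toward BN, with a median of 0.41, and the count toward BN was 1 when ACI rat 3, 4 or 5 or BN rat 1, 2, 3 or 4 was left out. *B2m*, the light chain of FcRn and of class I molecules, was at 14.55 ± 0.0797 in ACI rats and 14.55 ± 0.116 in BN rats (SD, n = 5; difference 0.00, standard error 0.0615), near the top of the scale, and its second probe set had -0.18 and was not called. *Alb*, the albumin gene and a cargo of FcRn as a protein, had -3.78 (adjusted p = 0.000123), and the recycling GTPase genes *Rab4a* and *Rab25* had 2.29 and 1.53 (adjusted p = 0.000256 and 0.00807). *Vps26a* was at 1.38 with a second probe set at -0.13 that was not called, and *Rab11a* was at -0.46 with a second probe set at -0.28 that was not called.

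**Figure D4:**
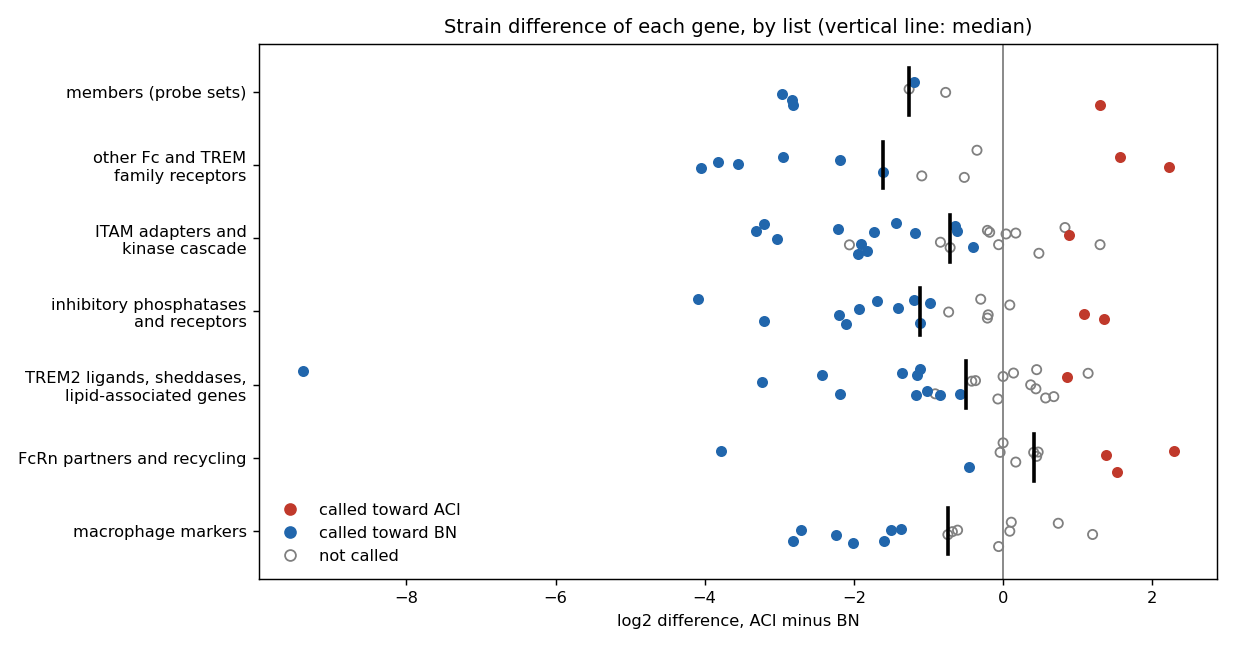
Log2 difference ACI minus BN (x axis) of each member probe set and of each gene of 5 pathway lists and the macrophage marker list (y axis); filled points were called toward ACI (red) or BN (blue), open points were not called, and vertical lines mark medians. The medians are -1.61 for other Fc and TREM family receptors and 0.41 for FcRn partners. Of 88 pathway genes, 42 are called toward BN and 9 toward ACI, beside 9.12% and 8.29% of all genes, which include many of low signal.

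The genes whose levels ran most like those of *Trem2*, *Fcgr3a* and *Fcer1g* were found by Pearson's r over the 10 arrays among 7304 genes with a mean of at least 6. The r is a description only, since the 10 arrays fall into 2 strains and the gap between strains sets much of it. Nearest to *Trem2* were *Cd300a*, an inhibitory receptor gene of myeloid cells (r = 0.982), *Capg*, an actin-capping gene of macrophages (r = 0.974), and *Cstb* (r = 0.969). *Cd300a* averaged 5.54 in ACI rats and 7.16 in BN rats. Nearest to *Fcgr3a* were *Ifi27* (r = 0.966), *Cited2* (r = 0.966) and *Lgr4* (r = 0.965), and *Lgr4*, a receptor gene of Wnt signalling in epithelium, averaged 7.59 in ACI rats and 5.57 in BN rats. Nearest to *Fcer1g* were *Ifitm3* (r = 0.975), *B9d1* (r = 0.975) and *Sqor* (r = 0.973).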

How the data were processed

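Total RNA from 10 mammary glands was hybridized to Affymetrix Rat Genome arrays, 1 rat per array. The authors summarized probes with GCRMA, version 2.18.1 by the submitters' processing notes, and the deposited values are log2 levels, used as given. No source used here states which arrays shared a normalization. Each strain was deposited in its own run of accessions, so deposit and strain cannot be told apart. With 5 arrays per strain, their number limits the precision.

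Of 31099 probe sets, 57 controls were left out. Gene names came from the platform's annotation, brought up to date through gene IDs in RefSeq (GRCr8): 20826 probe sets carry 1 symbol (20758 matched by ID), 436 several and 9780 none. The strain comparison used limma 3.58.1 (R 4.3.3), strain being the only term, with Benjamini-Hochberg adjustment over 31042 probe sets; the fit was tested on simulated data. The ID series was tested with strain as a block and with an interaction. For a list gene with several probe sets, the one of highest mean was used; near background means all 5 rats of a strain under 4. Members and lists were chosen with earlier results of these data known. Named genes are the members, up to 3 called genes per list and direction, by size of change, *Syk*, *Hcst*, *Cd247*, *Inpp5d*, *Ptpn6*, *B2m*, *Fcgr1a*, *Fcgr2a*, *Trem1* and *Spi1* (the last 3 have no probe set of their own among those used here) and the 3 genes most like each of *Trem2*, *Fcgr3a* and *Fcer1g*. *Cd37*, *Ptpn11* and the macrophage markers that did not pass are named outside this rule, with their values in view. Alternatives were a replicate block, an ID series block, each series alone, a filter and a floor at 4, quantile normalization, centring, Student's test, a trended and robust prior, leaving out each rat, the mean over probe sets and, chosen after seeing the data, leaving out BN rats 4 and 5.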

Additional observations from a re-analysis of the deposited data

Results flagged for a closer look

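In the 16 groups of 5 rats looked at (7 probe sets and the gap of *Fcgr3a* to *Fcer1g*, each in 2 strains), 2 held a rat that lay far from the others of its strain, by a criterion that chance meets in about 1 of 20 groups. Both were ACI rat 5, at 6.21 in *Fcgr3a*, where the other ACI rats lay between 7.00 and 7.31, and at 6.99 in *Fcgrt*, where they lay between 8.06 and 8.44. Without that rat the log2 difference, ACI minus BN, was 1.48 for *Fcgr3a* and -0.51 for *Fcgrt*.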

How the results depend on the processing

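Each of the 7 member probe sets kept the sign of its strain difference in all 21 alternatives. The number called was 4 to 5 when 1 rat was left out and 0 in series H alone. The difference between strains in the gap of *Fcgr3a* to *Fcer1g* was 1.92 in series H, 2.99 in series S, 3.15 without BN rats 4 and 5, 2.37 to 2.81 without 1 rat and 2.54 or 2.56 in the other alternatives. *Fcgr2b* and *Trem2* changed places as the largest difference: in series H it was -2.15 for *Fcgr2b* against -3.25 and -2.91 for *Trem2*. Without ACI rat 1 it was -2.89 for *Fcgr2b* against -3.05 for the larger of the *Trem2* probe sets. Without BN rat 1 these were -2.88 against -2.99, and without BN rat 2 -2.92 against -3.04. *Fcgr3a* and *Fcer1g* have 1 probe set each, so no other pair could be tried for their gap. *Fcer1g* was called in 5 of the 21 alternatives: the ID series block, series S alone, the filter, centring, and without BN rats 4 and 5. For all probe sets, 3930 were called in the report, 1926 with the replicate block, 100 in series H, 6350 without BN rats 4 and 5, and 2598 to 4618 without 1 rat, lowest without ACI rat 4. Toward ACI the count was 2108, or 1040 with the replicate block, 45 in series H and 1422 to 2118 without 1 rat. Toward BN it was 1822, or 886 with the replicate block, 55 in series H, 2783 in series S, 2807 with centring, 3768 without BN rats 4 and 5 and 1176 to 2500 without 1 rat, lowest without ACI rat 4. Centring so gave 2454 toward ACI and 2807 toward BN. Of the 88 pathway genes, 42 were called toward BN, or 20 with the replicate block, 3 in series H, 25 in series S and 32 to 40 without 1 rat; toward ACI 9 were called, or 1 in series H and 7 to 10 without 1 rat. The count for the ID series was 0, or 1 with centring, 1 with quantile normalization, 6 with the filter, 26 within ACI, 2643 within BN and 0 to 3 without 1 rat, and no member was called in any of these. Replicate numbers do not pair the rats: the correlation of deviations from the strain mean ran from -0.255 to 0.226 over the 5 numbers, and no ACI rat matched best the BN rat of its own number. The block lowered the counts as above, and the cause of the other shifts was not tested. The lowest levels, such as those of *Trem2* in ACI rats, are limited by background.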
